A study of Mus musculus with 20 samples.

Results

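Extraocular muscle of mdx mice was compared with leg muscle of mdx mice, on 5 one-colour Affymetrix arrays each. These 10 arrays were taken by their labelled genotype and muscle, out of 20 arrays in the series; the other 10 came from extraocular and leg muscle of control mice and enter only the last comparison. All mice were 8 weeks old. The mdx mouse carries a nonsense mutation in Dmd, the dystrophin gene, in every tissue, so both muscles carry it, and no further allele or treatment is labelled. The labels call the mdx samples leg muscle and extraocular muscle and do not name the muscles within these groups, while the control leg samples are labelled gastrocnemius/soleus. Whether animals were pooled, and whether the arrays of a group stand for different mice, is unsaid, so each p-value reflects only how much these arrays vary, technical variation included.

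Dystrophin links the cytoskeleton of a muscle fibre to the basement membrane through a complex of membrane proteins. Without it limb fibres break down in rounds, macrophages clear the debris, satellite cells rebuild fibres, and connective tissue builds up. The muscles that move the eye lack dystrophin too in mdx mice and are known to be spared; they are small, constantly active, rich in mitochondria, vessels and nerve, and hold fibre types of their own. The comparison asks which gene functions separate the spared from the dystrophic muscle.

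Of 6468 probe sets bright enough to test, 1264 (19.5%) passed at a limma adjusted p under 0.05, 617 higher in extraocular and 647 higher in leg muscle, and 461 of them differed at least 2-fold. At an unadjusted p under 0.05 there were 2042. All 5 arrays of one muscle lay beyond all 5 of the other for 997 probe sets (15.4%). Choice of genes by a small adjusted p favours such non-overlap, so where given below it describes those genes and adds no support. Named by the brightest tested probe set of each gene, 5011 genes were tested, of which 20.5% passed, 10.3% higher in extraocular and 10.2% higher in leg muscle, with a median log2 difference of 0.01; these shares are the background for the counts of each gene group. Signals are in array units after scaling, as mean ± SD with n = 5, log2 differences are extraocular minus leg, and folds come from means of log2 values floored at 50, so they can differ from the ratio of the mean signals and, for genes with arrays below the floor, depend on it. A gene bright in only 1 muscle passes the brightness filter through that muscle, so counts over tested members describe each group and do not support it.

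Between 48.9% and 52.0% of probe sets reached a signal of 200 on each of the 10 arrays. Correlations of log2 signals were 0.893 to 0.945 within extraocular, 0.905 to 0.944 within leg and 0.829 to 0.871 between the muscles. The 3' over 5' ratio of control probe sets, a check of RNA and labelling quality, moved with the comparison. For beta-actin its log2 was 0.17 ± 0.35 on extraocular arrays (-0.38 to 0.53) and -1.86 ± 1.25 on leg arrays (-3.61 to -0.22; two-sided exact permutation p = 0.016, n = 5). For Gapdh it was -1.27 ± 0.62 against -2.50 ± 0.14 (two-sided exact permutation p = 0.0079, the smallest the 252 splits allow; p = 0.016 and 0.0158 after Benjamini-Hochberg adjustment over the 2 ratios). Its part in the results below was not tested.

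Markers of the labelled tissues were partly in place. Hoxd8, a homeobox factor of the limb and trunk, read 56.1, 157, 76.5, 218 and 78.1 on the extraocular arrays and 868, 771, 762, 829.9 and 504 on the leg arrays (7.14-fold lower in extraocular, adjusted p = 5.90e-05), and Hoxc9 was 3.18-fold lower (adjusted p = 7.01e-04). Both groups were fully apart for these genes. Tbx15 and Pitx1, developmental factors listed here as leg markers, went the other way: Tbx15 read 2984, 2903, 3469, 3425 and 1978 against 949, 751, 884, 1112 and 447, and Pitx1 924 ± 129 against 469 ± 107 (3.65-fold and 2.00-fold higher in extraocular, adjusted p = 6.37e-05 and 0.00114), and En1, another homeobox factor, was 2.84-fold higher in leg. Hoxa4, Hoxc6 and Hoxc8 did not pass (log2 0.99, 0.53 and -0.14; adjusted p = 0.0640, 0.248 and 0.776), and Hoxa5, Hoxa9 and Hoxd9 were too dim to test. Of 23 tested position factors 3 were higher in extraocular and 5 in leg muscle, and leaving out leg array 1 or 2, or extraocular array 1, 2, 4 or 5, left 3 in leg. Myh6, a myosin found in extraocular fibres, was too dim to test, at 47.6 to 197 on extraocular and 10.5 to 30.4 on leg arrays. Myh13, the myosin most tied to eye muscle, was not analysed here. Dmd itself was below the test limit in both muscles (119 ± 31.7 against 77.5 ± 32.3), and Utrn, its relative that can stand in for dystrophin, read 54.6 to 334 against 160.4 to 324 and did not pass (adjusted p = 0.461).

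The widest differences joined immune and contractile genes on the leg side with secreted, transport and smooth muscle genes on the extraocular side. Myom2, which codes for a protein of the sarcomere's M-band in fast fibres, read 77.1, 106, 128, 177 and 255 on extraocular and 3523, 2644, 2204, 2688 and 1859 on leg arrays, and was 18.5-fold higher in leg (log2 -4.21, SE 0.28, adjusted p = 4.33e-07). Every leg array lay far above every extraocular array. Cacng1, the gamma subunit of the calcium channel that couples nerve signal to contraction, was at 475, 561, 611, 404 and 444 against 5037, 3572, 4127, 4595 and 4186 and 8.66-fold higher in leg (adjusted p = 1.89e-08). Slc4a3, an exchanger of chloride for bicarbonate, gave 7353, 7169, 6978, 7184 and 6344 against 921, 936, 885, 574 and 601, 9.14-fold higher in extraocular (adjusted p = 1.89e-08). Within each muscle the arrays of Slc4a3 and Cacng1 lay close together and far from the other muscle. Bpifa2, whose product is secreted into saliva, was at 4164, 4296, 3818, 3860.1 and 3030.0 on extraocular arrays and 281, 156, 306, 301 and 223 on leg arrays (15.5-fold higher in extraocular, adjusted p = 1.89e-08).

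**Figure D1:**
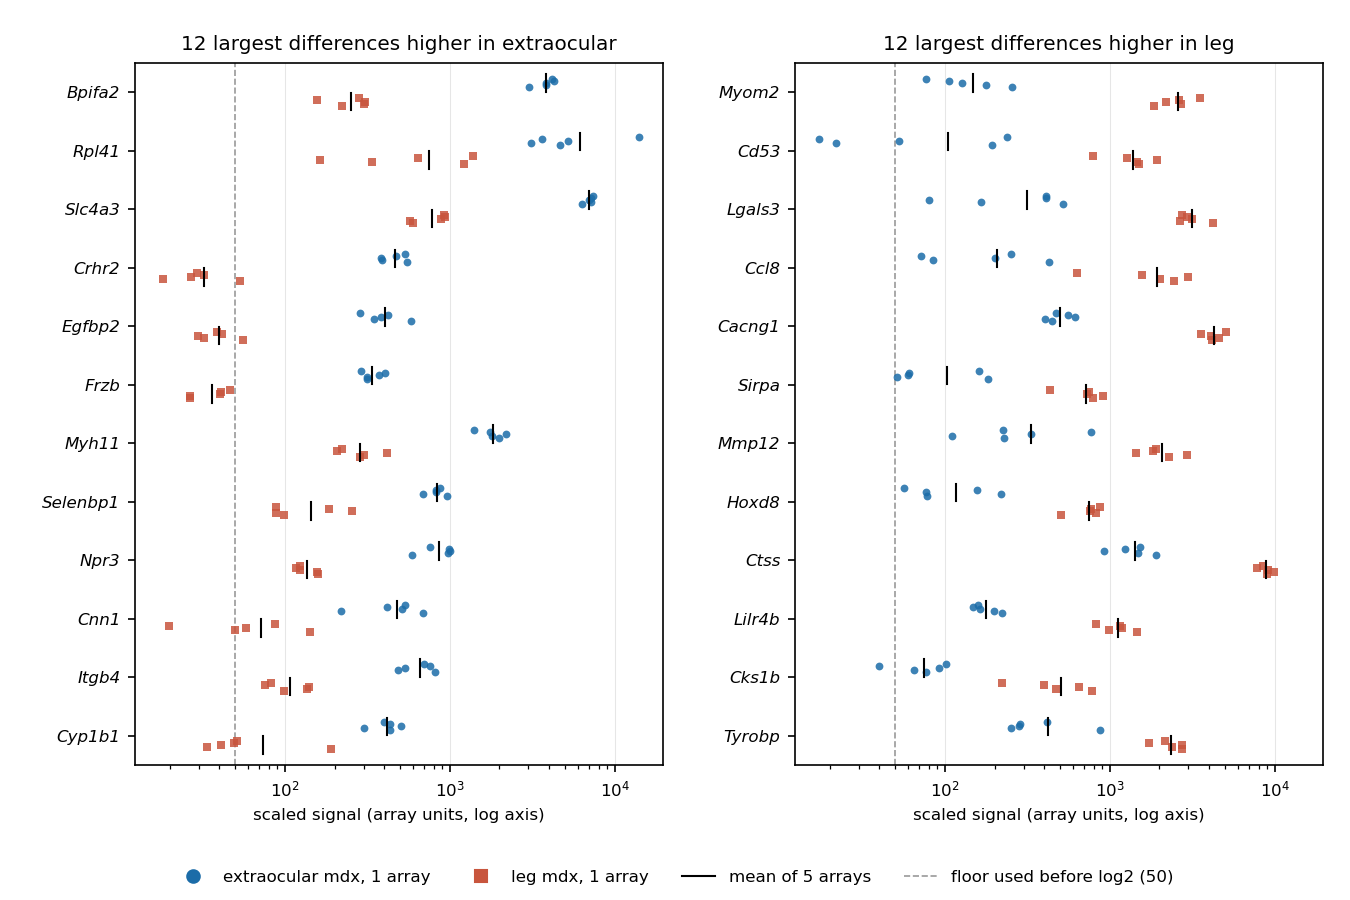
Scaled signal of the 12 genes with the largest difference in each direction among those that passed and whose arrays did not overlap, on a log axis; each point is 1 array, bars are means of 5 arrays and the dashed line is the floor of 50. Non-overlap was a condition of choice. Bpifa2 and Slc4a3 sit in tight clusters about 15.5-fold and 9.14-fold apart, while Rpl41 and Cd53 spread widely within a muscle.

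The remaining genes with the largest excess in extraocular muscle were of mixed function. Crhr2, a receptor of the corticotropin-releasing hormone family that acts on muscle mass, read 537, 469.6, 382, 387 and 549 against 29.3, 32.3, 27.0, 18.1 and 53.8, and was 9.05-fold higher (adjusted p = 2.24e-06). Egfbp2, a kallikrein type protease, was 7.67-fold higher, Frzb, a secreted Wnt antagonist, 6.73-fold higher, and Cyp1b1, a cytochrome P450 enzyme, 6.22-fold higher (adjusted p = 1.21e-05, 1.71e-05 and 3.05e-04). Crhr2, Egfbp2, Frzb and Cyp1b1 had leg arrays below the floor, so their folds depend on it. Selenbp1, a selenium-binding protein (6.41-fold, adjusted p = 2.44e-05), Npr3, the clearance receptor of natriuretic peptides (6.29-fold, adjusted p = 9.70e-07), and Itgb4, an integrin of epithelia and nerve sheaths (6.26-fold, adjusted p = 7.25e-06), were above the floor on all 10 arrays. Rpl41, a ribosomal protein gene read by a probe set shared within a gene family, gave 14058, 3616, 5192, 3091 and 4681 against 1376, 646, 162, 336 and 1228 (9.15-fold, adjusted p = 9.21e-04). Its extraocular array 1 was far above the others, and its leg arrays spanned 162 to 1376. Only Rpl41 and Rpl13a (2.31-fold higher in leg) passed among 24 tested ribosomal protein genes, whose median was -0.04, and 5 were higher in leg under quantile normalization.

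Nearly all tested macrophage genes were higher in leg muscle. Of 56 listed genes 48 were on the array and 34 were tested; 33 were higher in leg and 0 in extraocular muscle, with a median log2 difference of -1.64, against 10.2% and 0.01 over all genes. Ctss, cathepsin S, a lysosomal protease of macrophages, read 1528, 1235, 921, 1486 and 1898 on extraocular and 8474, 7870.1, 9076, 9909 and 8951 on leg arrays, 6.43-fold higher in leg (log2 -2.68, SE 0.17, adjusted p = 2.83e-07). Every leg array lay far above every extraocular array. Cd53, a tetraspanin of leukocytes, read 238, 17.2, 52.5, 21.9 and 193 against 789.6, 1269, 1926, 1458 and 1513 and was 14.8-fold higher in leg (adjusted p = 4.20e-05), with 2 extraocular arrays below the floor. The lectin Lgals3 was at 409.6, 412, 79.7, 165 and 518 against 2755, 2943, 3166, 2669 and 4211 (log2 -3.59, adjusted p = 4.21e-05). For these genes the 5 leg arrays lay above all extraocular arrays, and the extraocular arrays varied more on the log scale. In this bulk tissue, fewer cells of a type and less RNA of it per cell cannot be told apart.

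The promoters of Ctss and Cd53 are shown because both genes were far higher in leg muscle and both hold a motif of the kind bound by PU.1, the factor coded by Spi1 that drives macrophage genes. Both windows run from 250 bases before to 50 bases after the gene's start (RefSeq, GRCm38.p6), written in the direction of the gene with the motif in capitals. The motif GAGGAAGT was searched on both strands. In both windows it lies on the reverse strand, so the letters shown read ACTTCCTC. These begin at position -2 from the gene's start in Ctss, and so span the start, and at position 7, after the start, in Cd53. Of 32851 such windows 3.20% hold it, and it was found in these 2 of the 7 searched macrophage genes with a listed window. The Ctss window lies on the plus strand at chr3:95526536-95526835 and the Cd53 window on the minus strand at chr3:106790100-106790399.
Ctss: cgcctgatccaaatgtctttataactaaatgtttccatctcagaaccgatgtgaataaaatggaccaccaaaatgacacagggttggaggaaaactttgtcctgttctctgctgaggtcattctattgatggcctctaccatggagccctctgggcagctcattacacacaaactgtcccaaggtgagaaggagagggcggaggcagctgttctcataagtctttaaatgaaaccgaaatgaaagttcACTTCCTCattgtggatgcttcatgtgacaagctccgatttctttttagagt
Cd53: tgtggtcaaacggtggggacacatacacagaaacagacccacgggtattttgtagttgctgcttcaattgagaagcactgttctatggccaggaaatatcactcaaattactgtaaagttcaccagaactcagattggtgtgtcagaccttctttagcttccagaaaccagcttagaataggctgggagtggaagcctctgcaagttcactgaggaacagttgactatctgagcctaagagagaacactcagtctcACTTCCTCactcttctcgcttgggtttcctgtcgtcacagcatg
A match of letters is a description and shows no binding.

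Other macrophage genes covered recognition, signalling and digestion. Laptm5, a lysosomal membrane protein of blood cells (4.21-fold, adjusted p = 1.43e-06), Mpeg1, a pore-forming protein of macrophages (4.19-fold, adjusted p = 1.47e-06), and Cd68, a macrophage lysosome marker (3.78-fold, adjusted p = 1.90e-06), were higher in leg on all 5 arrays. Tyrobp, a signalling adaptor of myeloid receptors, read 419, 285, 282, 253 and 877 against 2176, 1724, 2739, 2386 and 2738 (6.18-fold, adjusted p = 2.76e-05), Sirpa, a receptor that restrains phagocytosis, 160.2, 60.9, 60.1, 51.1 and 182 against 435, 744, 729, 907 and 788 (7.90-fold, adjusted p = 8.35e-05), and Lilr4b, a leukocyte receptor, was 6.25-fold higher (adjusted p = 6.40e-07). Extraocular array 5 was the highest of its group for both Tyrobp and Sirpa and still below every leg array. Lyz2, the lysozyme of macrophages, and Adgre1, which codes for the F4/80 antigen, were chosen after their values were seen and had log2 differences of -2.13 and -2.40 (adjusted p = 1.40e-05 and 0.00224). The summed signal of the tested macrophage list was 18884 to 27442 on extraocular arrays and 62357 to 83382 on leg arrays, with no overlap.

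Cytokine and chemokine genes that passed were also mostly higher in leg muscle, chemokines that draw monocytes among them. Of 18 tested genes of the 47 on this list, 9 were higher in leg and 1 in extraocular muscle (median log2 -0.63). Ccl8 read 251, 71.3, 201, 84.1 and 426 on extraocular and 634, 1577, 2975, 2013 and 2449 on leg arrays (10.3-fold, adjusted p = 2.97e-04), and Ccl2, the main attractant of monocytes, 316, 335, 207, 286 and 455 against 774, 1338, 2679.8, 1131 and 2128 (4.72-fold, adjusted p = 1.55e-04). Leg array 1 was the lowest of its group for both, and still above the extraocular arrays. Their relative Ccl7 was 4.48-fold higher (adjusted p = 2.42e-04), and Ccr2, the receptor that answers Ccl2 and Ccl7, 3.72-fold higher (adjusted p = 8.81e-05). Il1rn, the antagonist of the interleukin-1 receptor, was 6.10-fold higher (adjusted p = 2.76e-04). The 1 gene on the other side was Ccl22 (log2 0.71, adjusted p = 0.0226, a call that ended without extraocular array 1 or 4 (adjusted p up to 0.0590, without extraocular array 4); chosen after its value was seen).

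Complement genes were mostly on the leg side. Of 11 tested genes 7 were higher in leg and 1 in extraocular muscle. C1qa, a chain of the starting complex C1q, read 2069.5, 879.6, 674, 987 and 1644 against 3753, 4183, 5758, 4949.6 and 5338 (4.13-fold, adjusted p = 9.60e-05) and C1qc 2436, 1849, 1884, 1650.5 and 2309.7 against 4849.5, 5259, 7013, 5861 and 6238 (2.89-fold, adjusted p = 6.56e-06); both are on the macrophage list too. The regulators went in opposite directions: Cd55, which dissolves the convertase, was 4.59-fold higher in leg (124 ± 21.1 against 569 ± 98.7, adjusted p = 9.49e-06), while Cd59a, which blocks the membrane pore, was 2.44-fold higher in extraocular muscle (2161 ± 297 against 892 ± 180.1, adjusted p = 5.42e-05).

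Antigen presentation genes were on the leg side, with 12 of 21 tested genes higher in leg and 0 in extraocular muscle (median log2 -0.73). H2-Aa, the alpha chain of a class II molecule that shows peptides to helper T cells, read 1849, 871, 1139.8, 715 and 1119 on extraocular and 4689, 4247, 5355, 4858 and 4870.1 on leg arrays (4.44-fold, adjusted p = 7.55e-06). Its partner H2-Ab1 was 3.86-fold higher (adjusted p = 1.06e-04), and H2-DMa, which helps load the peptides, 5.46-fold higher (adjusted p = 6.90e-05). H2-D1, a class I molecule present on most cells, differed less, at 2164 ± 197 against 4871 ± 760.0 (2.23-fold, adjusted p = 3.60e-05, by a probe set shared within a gene family). H2-Eb1, a class II beta chain chosen after its value was seen, had a log2 difference of -0.82 (adjusted p = 7.73e-04). The muscles did not overlap for H2-Aa, H2-Ab1, H2-DMa or H2-D1.

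The promoters of H2-Aa and H2-Eb1 are shown because both class II genes were higher in leg muscle and share the Y-box, CTGATTGG, a letter string of class II promoters that the factor NF-Y can bind. It was searched on both strands in the same windows, 4.10% of all windows hold it, and it was found in 2 of 4 searched class II genes with a listed window, not in H2-DMa or H2-DMb1. The motif is in capitals; H2-Aa lies on the minus strand at chr17:34287774-34288073 and H2-Eb1 on the plus strand at chr17:34305617-34305916.
H2-Aa: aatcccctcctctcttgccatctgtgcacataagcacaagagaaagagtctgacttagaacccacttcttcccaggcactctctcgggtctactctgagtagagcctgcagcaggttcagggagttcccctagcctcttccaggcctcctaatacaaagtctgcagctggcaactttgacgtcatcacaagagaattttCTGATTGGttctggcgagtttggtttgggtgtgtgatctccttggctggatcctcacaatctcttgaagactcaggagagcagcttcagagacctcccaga
H2-Eb1: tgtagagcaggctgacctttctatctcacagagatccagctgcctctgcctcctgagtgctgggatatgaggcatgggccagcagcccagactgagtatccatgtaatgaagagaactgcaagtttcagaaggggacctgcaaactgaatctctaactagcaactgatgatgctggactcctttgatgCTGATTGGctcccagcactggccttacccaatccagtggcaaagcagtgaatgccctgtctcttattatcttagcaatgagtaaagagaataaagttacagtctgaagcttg
It starts 51 and 62 bases before the start of the gene, respectively.

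Interferon and lymphocyte genes gave less. Of 15 tested interferon induced genes 5 were higher in leg and 0 in extraocular muscle, with Ifi204 2.06-fold higher (adjusted p = 0.00210), and with overlap for Ifi35, Iigp1 and Ifi27 (log2 -1.82 for Ifi35 and -0.55 for Ifi27; adjusted p = 0.0129, 0.0181 and 0.0204). With no brightness filter 1 of the 5 passed, and the Ifi27 call ended without extraocular array 4 (adjusted p = 0.052). Of 11 tested lymphocyte genes only Ighm, an antibody heavy chain, passed, at 797, 627, 522, 534 and 243 against 1556, 1635, 1265, 1626 and 1505 (2.97-fold, adjusted p = 5.36e-04), while Cd79a and Ms4a1, other B cell genes, did not (adjusted p = 0.487 and 0.498). Of 8 tested neutrophil and mast cell genes none passed; S100a8, a neutrophil protein, had the smallest adjusted p (-0.61 on the log2 scale, adjusted p = 0.270).

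Protein breakdown genes were on the leg side where they passed. Of 45 tested genes of lysosomal and ubiquitin proteolysis 15 were higher in leg and 0 in extraocular muscle (median log2 -0.28). Ctsz, cathepsin Z (2.29-fold, adjusted p = 5.27e-04), and Cstb, an inhibitor of cathepsins (1.69-fold, adjusted p = 6.94e-04), were higher in leg, as was Ube2g1, a ubiquitin-conjugating enzyme, at 1319, 1826, 1615, 1592 and 1407 against 3599.6, 3444, 2537, 3350.0 and 2938 (2.04-fold, adjusted p = 9.60e-05). The muscles did not overlap for these genes. Ctss is on this list too.

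Matrix genes were higher in leg muscle as a group, though less evenly. Of 82 listed genes 67 were on the array and 51 were tested; 20 were higher in leg and 4 in extraocular muscle (median log2 -0.35). Postn, periostin, a matrix protein of tissue repair, read 1544, 1110.4, 1144, 1216 and 1869 on extraocular and 8811, 5930.1, 7622, 7101 and 8724 on leg arrays (5.61-fold, adjusted p = 4.33e-07; log2 -2.49, SE 0.17). Tnc, tenascin C, a protein of injured and growing tissue, was at 148, 114, 149.8, 127 and 164 against 537, 623, 483, 588 and 1125 (4.59-fold, adjusted p = 2.43e-05). Every leg array exceeded every extraocular array for both, with leg array 5 the highest for Tnc. The fibrillar and microfibrillar collagens differed by less: Col5a2 was 2.85-fold, Col6a3 2.58-fold, Col1a1 1.97-fold, and Col1a2 1.62-fold higher in leg (adjusted p = 4.97e-05, 7.34e-06, 3.45e-04 and 0.00640), Col3a1 had a log2 difference of -0.59 (adjusted p = 0.0143), and a second probe set of Col1a1 did not pass (adjusted p = 0.138). A second, dimmer probe set of Col3a1 read 369 ± 43.7 against 1164 ± 180 and was 3.14-fold higher in leg (log2 -1.65, adjusted p = 3.97e-06). The 4 genes higher in extraocular muscle were Lamb2, a laminin chain of vessels and neuromuscular junctions, Eln, elastin, Fbln1, fibulin 1, and Ltbp4, a binding protein of TGF-beta (log2 1.05, 0.72, 0.84 and 0.69; chosen after their values were seen). The leg count was 12 when the spread was estimated on all 20 arrays, where Col1a2 and the brighter probe set of Col3a1 did not pass (adjusted p = 0.0536 and 0.197), and 13 without a brightness filter.

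Enzymes that cut or build matrix did not move as a group (2 of 18 higher in extraocular, 3 in leg muscle), but held wide single differences. Mmp12, an elastase secreted by macrophages, read 225, 765, 334, 111 and 229.5 against 1895, 1838, 1451, 2945 and 2286 (7.47-fold, adjusted p = 1.38e-04), and its other probe set, 123 ± 57.8 against 1721 ± 280.1, gave 14.8-fold higher in leg (adjusted p = 2.83e-07). Timp1, an inhibitor of metalloproteinases, was 2.41-fold higher in leg (1242 ± 155 against 3048 ± 756, adjusted p = 1.00e-04). Plat, the tissue plasminogen activator, was 2.18-fold higher in extraocular muscle (1123 ± 189 against 512 ± 75.7, adjusted p = 2.22e-04), and P4ha2, which modifies collagen, 1.34-fold higher there (adjusted p = 0.0328, a call that ended without leg array 1, 2 or 3 or extraocular array 1, 4 or 5 (adjusted p up to 0.0808, without leg array 2)).

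Of 21 tested fibroblast markers 6 were higher in leg and 0 in extraocular muscle, with a median log2 of 0.03; most of the 6 are collagen genes of the matrix list, and 2 remained called when the spread was estimated on all 20 arrays. S100a4, a calcium-binding protein of motile fibroblasts and macrophages, read 529, 649.7, 619.7, 433 and 681 against 2943, 2919.9, 2969, 3804 and 5039 and was higher in leg (log2 -2.59, adjusted p = 5.46e-07). The summed fibroblast list was at 45658 to 66850.4 on extraocular and 61321 to 67118 on leg arrays, which overlap, and its part in the matrix differences was not tested.

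Genes of dividing cells were higher in leg muscle in 10 of 32 tested cases and higher in extraocular muscle in 1 (median log2 -0.52). Cks1b, a subunit that activates cyclin-dependent kinases, read 102, 39.6, 91.7, 65.1 and 76.4 against 221, 399.9, 652, 474 and 779.7 (6.20-fold, adjusted p = 1.38e-04), and Cdk1, the kinase that starts mitosis, 126, 46.4, 48.9, 76.8 and 50.8 against 276, 439.8, 633, 311 and 413 (6.04-fold, adjusted p = 1.48e-04). The extraocular arrays were near the floor for both. H2az1, a histone variant abundant in dividing cells, was 2.65-fold higher in leg (1183 ± 103 against 3201 ± 742, adjusted p = 4.04e-05) and Kif22, a mitotic motor, 2.48-fold higher (adjusted p = 9.40e-04). The gene on the other side was Cdkn1b, an inhibitor of the cell cycle (log2 0.42, adjusted p = 0.0438, a call that ended without leg array 2, 3 or 4 or extraocular array 1, 2, 3 or 5 (adjusted p up to 0.113, without leg array 4); chosen after its value was seen). With a brightness filter of 500 the leg count was 6.

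Genes of muscle precursors and repair went both ways: of 39 tested satellite cell and myogenic genes 9 were higher in extraocular and 5 in leg muscle (median log2 0.19). On the leg side was Mest, an imprinted gene of growing mesoderm, at 185, 149, 147, 192 and 234 against 677, 378, 374, 564 and 449 (2.66-fold, adjusted p = 5.75e-04). Igf2, Myod1 and Myog, all chosen after their values were seen, were also higher in leg: Igf2 is a fetal growth factor (1.83-fold, adjusted p = 0.00403), Myod1 commits cells to muscle (1.42-fold, adjusted p = 0.00532), and Myog drives their differentiation (1.65-fold, adjusted p = 0.0254, a call that ended without leg array 1 or 2 or extraocular array 2 (adjusted p up to 0.0636, without leg array 2)). Myod1 arrays did not overlap (1002 to 1253 against 1503 to 1713), while Myog arrays did (559 to 1328 against 1278 to 1873). On the extraocular side Igf1r, the receptor of insulin-like growth factor, was 2.60-fold higher, Fst, follistatin, the inhibitor of myostatin, 2.41-fold higher and Fgf1, a growth factor of muscle and nerve, 3.30-fold higher (adjusted p = 0.00119, 0.00140 and 0.00213). Fgf1 read 436, 508, 567, 625 and 608 against 154, 173, 284, 241 and 67.1, with leg array 5 the lowest.

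Genes that immature, denervated or stretched fibres express also went both ways, 6 of 25 higher in extraocular and 7 in leg muscle. Ankrd1, a stretch-responsive ankyrin repeat protein, read 277, 238, 128, 337 and 178 on extraocular and 1717, 932, 1459, 832 and 1607 on leg arrays (5.73-fold, adjusted p = 2.76e-05), and Ankrd2 was 2.45-fold higher in leg (adjusted p = 3.96e-04). Nes, nestin, an intermediate filament of immature fibres and junctions, was 1.85-fold higher in leg (adjusted p = 5.92e-04), and Tnnt2, the fetal and cardiac troponin T, 1.78-fold higher (422 ± 73.1 against 752 ± 113, adjusted p = 0.00276; chosen after its value was seen). Embryonic Myh3 read 190.3 to 533 against 147 to 653 and did not pass (adjusted p = 0.882). The neonatal myosin Myh8 was on the other side, at 723, 970.3, 740.5, 1088 and 592 against 553, 427, 438, 466 and 502 (1.69-fold higher in extraocular, adjusted p = 0.00709).

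The subunits of the acetylcholine receptor, through which motor nerves excite the fibre, differed in opposite directions. Chrng, the gamma subunit of the fetal receptor that returns after denervation and in new fibres, read 84.5, 271, 88.8, 437 and 104 on extraocular and 873, 679, 568, 878 and 1117 on leg arrays (5.13-fold higher in leg, adjusted p = 0.00122). Chrne, the epsilon subunit that replaces it in adult junctions, read 886, 732, 915, 646 and 954 against 438, 385, 436, 222 and 109 (2.90-fold higher in extraocular, adjusted p = 0.00502). The muscles did not overlap for either. The other probe sets of Chrne gave log2 differences of 3.04 (adjusted p = 1.73e-04) and 0.75 (adjusted p = 0.0807, not passed). Chrna1, the alpha subunit of both forms, was 1.66-fold higher in extraocular (1652, 2016, 2346, 1339 and 2497 against 1207, 1165, 1020.2, 1214 and 1198, adjusted p = 0.00607), and Ache, the enzyme that ends the signal, 3.02-fold higher (1183, 1069, 1580.3, 1207 and 1420.0 against 668, 480.2, 514, 499.5 and 167, adjusted p = 0.00189). Chrne, Chrna1 and Ache were chosen after their values were seen.

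The promoters of Chrng and Chrne are shown because the genes code for alternative subunits of 1 receptor and differed in opposite directions. The E-box, CANNTG, the kind of letter string that Myod1 and Myog bind, is in capitals in Chrng, and the N-box, CCGGAA, a string that directs genes to the nuclei under the nerve ending, is in capitals in Chrne. The same windows were searched on both strands: 72.3% of all windows hold an E-box and 14.9% an N-box. All 4 receptor genes with a listed window hold an E-box, Chrng 3 times and Chrne once, and only Chrne holds an N-box. Chrng lies on the plus strand at chr1:87205561-87205860 and Chrne on the minus strand at chr11:70619145-70619444.
Chrng: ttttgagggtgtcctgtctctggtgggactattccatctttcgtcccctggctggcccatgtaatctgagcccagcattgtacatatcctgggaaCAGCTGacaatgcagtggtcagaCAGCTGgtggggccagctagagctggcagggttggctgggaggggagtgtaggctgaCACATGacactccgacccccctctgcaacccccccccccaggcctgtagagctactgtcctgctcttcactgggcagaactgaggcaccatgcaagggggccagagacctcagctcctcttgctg
Chrne: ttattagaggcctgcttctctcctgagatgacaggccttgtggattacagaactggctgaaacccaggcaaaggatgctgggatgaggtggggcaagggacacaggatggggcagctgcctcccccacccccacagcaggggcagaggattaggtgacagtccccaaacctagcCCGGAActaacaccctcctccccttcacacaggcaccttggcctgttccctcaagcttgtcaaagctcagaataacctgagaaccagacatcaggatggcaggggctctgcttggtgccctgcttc
An E-box is in most windows, so its presence sets neither gene apart.

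**Figure D2:**
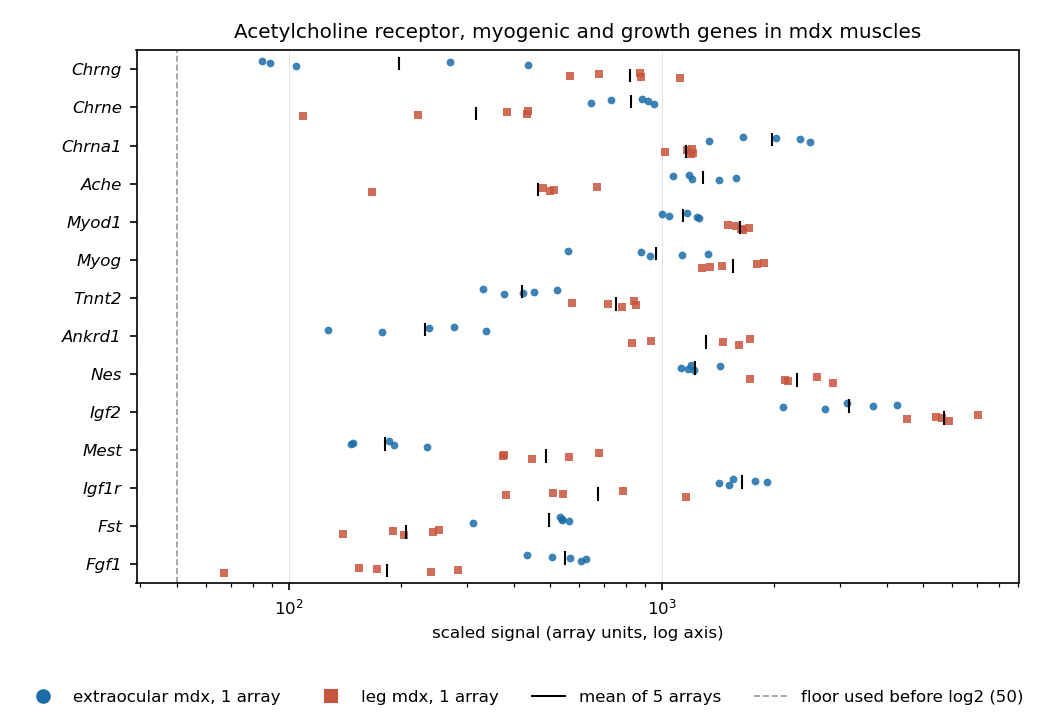
Scaled signal on a log axis of genes of the neuromuscular junction, myogenic factors and growth factors, 1 point per array, with bars at the means of 5 arrays and the floor of 50 dashed. Chrng, Myod1, Tnnt2, Ankrd1, Nes, Igf2 and Mest are higher on all leg arrays, Chrne, Chrna1, Ache, Igf1r, Fst and Fgf1 on all extraocular arrays, and Myog overlaps.

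Contractile genes of both fibre types were found on both sides, with slow fibre genes more often higher in extraocular muscle. Of 15 tested slow fibre genes 8 were higher in extraocular and 3 in leg muscle, and of 21 fast fibre genes 5 and 6 (medians 0.61 and 0.21). Myl3, the slow and cardiac essential light chain, read 638, 575, 637, 606 and 855 against 1912, 2021, 4138, 2870.5 and 3968 and was 4.32-fold higher in leg (adjusted p = 1.54e-05), whereas Myl6b, a light chain also used in slow muscle, was 2.47-fold higher in extraocular (adjusted p = 2.70e-05). The slow myosin Myh7 was at 5961 ± 1098 against 3422 ± 1521 (1.85-fold higher in extraocular, adjusted p = 0.0202, a call that ended without leg array 2 or 4 or extraocular array 3 (adjusted p up to 0.0536, without extraocular array 3)). Myh4, the fastest limb myosin and a leg marker, was 2.01-fold higher in extraocular (11742 to 20073 against 4642 to 14808, adjusted p = 0.0152), with overlap and a second probe set that did not pass (adjusted p = 0.793). Myh1, a fast myosin, was at 16422 ± 4125 against 13972 ± 4557 and did not pass (adjusted p = 0.481), and Myh2 was too dim to test. Actn3, a Z-disc protein of fast fibres, was 1.77-fold higher in leg (3915 ± 335 against 7162 ± 2262, adjusted p = 0.00613). When the spread was estimated on all 20 arrays, Myl3 and Myh7 did not pass (adjusted p = 0.127 and 0.278), and 4 slow genes and 3 fast genes were higher in extraocular and 1 slow gene in leg muscle, and without a brightness filter 5 slow and 1 fast genes were higher in extraocular.

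Among structural genes of the sarcomere 8 of 22 were higher in leg and 3 in extraocular muscle. Of the 22 log2 differences 11 were positive and 11 negative (median -0.19). Besides Myom2, Mybph, a myosin-binding protein, read 950.3, 1114, 849, 908 and 545 against 3356, 3074, 2192, 3234 and 3578 (3.58-fold, adjusted p = 1.47e-05), and Pdlim7, an adaptor at the Z-disc, was 2.84-fold higher in leg (adjusted p = 4.16e-05), though its second probe set did not pass (adjusted p = 0.539). Capza2, which caps actin filaments, was 1.85-fold higher in leg (adjusted p = 2.29e-04).

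A few very abundant muscle genes were low and uneven on the leg arrays. Acta1, skeletal actin, read 15005, 14152, 11207, 7796 and 12212 on extraocular and 10611, 1879.9, 321, 479 and 5373 on leg arrays (6.73-fold higher in extraocular, adjusted p = 0.0217), Casq1, the calcium store protein of fast fibres, 19610.3, 13821, 13696, 9537 and 15983 against 5872, 4042, 2195, 1654 and 11059 (3.59-fold, adjusted p = 0.00618), and Atp2a1, the calcium pump of fast fibres, 10183, 2199.5, 2399.6, 2599.6 and 4808 against 545, 766, 389, 700.4 and 3198 (4.50-fold, adjusted p = 0.00969). For Acta1 this was a call that ended without leg array 4 (adjusted p = 0.0558). The muscles overlap in each case, and leg arrays 3 and 4 held the lowest Acta1 and Casq1 signals. The log2 beta-actin ratio of those arrays was -3.61 and -0.22, the lowest and the highest of the leg group. Acta1, Casq1 and Atp2a1 were chosen after their values were seen.

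Pvalb, parvalbumin, the calcium buffer of fast fibres, was the 1 gene of 569 with several tested probe sets whose probe sets passed in opposite directions. Its brighter one, which may also read related genes, read 5657, 5666, 5548, 5387 and 5923 against 15209.9, 15402, 10214, 11974 and 14020.1, 2.34-fold higher in leg (adjusted p = 2.57e-05). The dimmer one, of an incomplete kind, read 9077, 5571, 5646, 1155 and 7811 against 546, 436, 616, 334 and 1140.4, 8.56-fold higher in extraocular (adjusted p = 4.39e-04). The mean of both would give 0.93 on the log2 scale (adjusted p = 0.0213), so no direction is given for Pvalb.

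**Figure D3:**
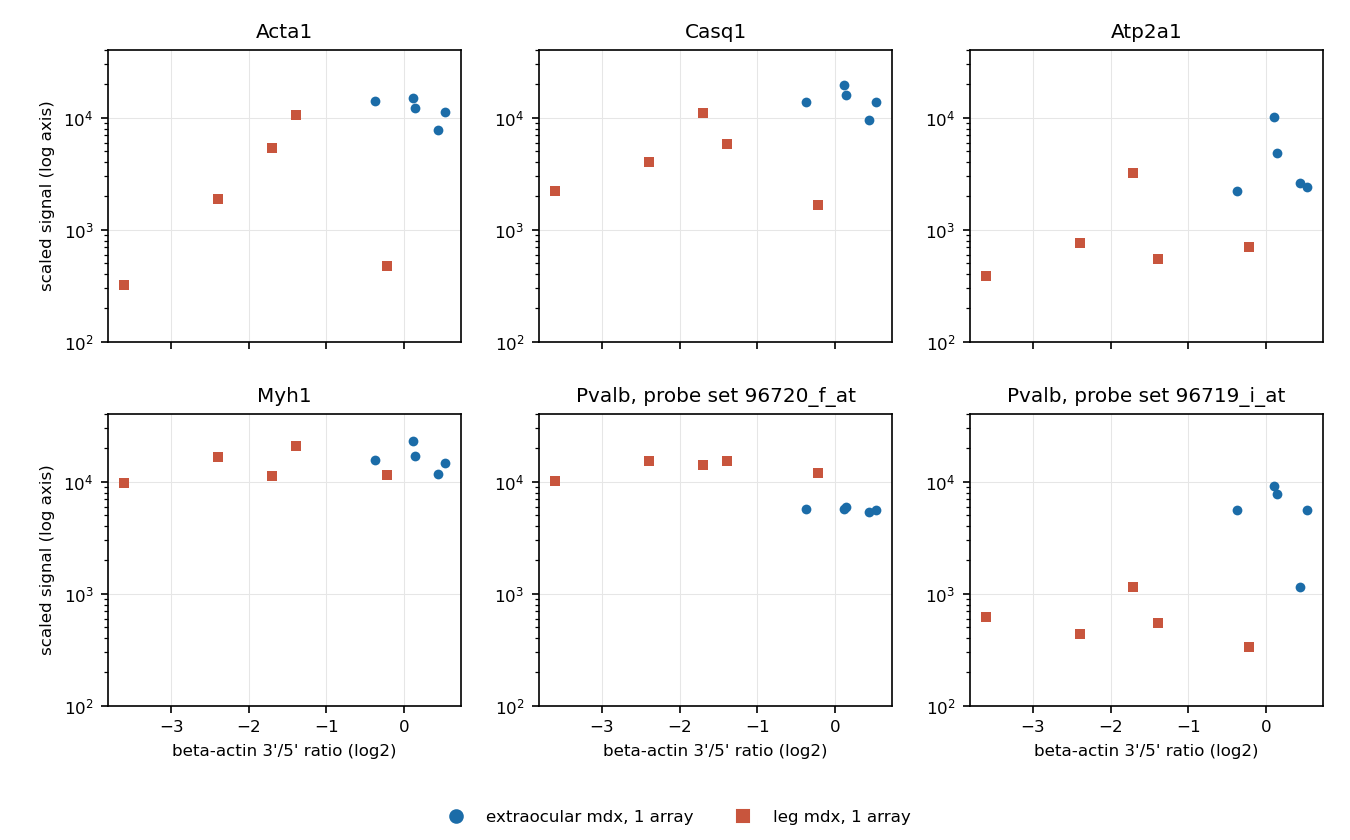
Scaled signal (log axis) of 5 abundant muscle genes, Pvalb by both probe sets, against the log2 3' over 5' ratio of beta-actin, 1 point per array. Leg arrays run from -3.61 to -0.22 in the ratio and extraocular arrays from -0.38 to 0.53; Acta1 is lowest on the leg arrays with the lowest and the highest ratio, and Myh1 stays within 9786 to 22949 on all arrays.

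Genes of the dystrophin complex and its neighbours went both ways: of 20 tested, 3 were higher in extraocular and 4 in leg muscle (median log2 -0.16). Sspn, sarcospan, a membrane partner of the sarcoglycans, read 3550.2, 3560.3, 4165, 3069.9 and 3793 against 1678, 1889, 1571, 2173 and 1719 (2.01-fold higher in extraocular, adjusted p = 6.83e-05). Sgce and Dag1, the epsilon-sarcoglycan and dystroglycan genes, were chosen after their values were seen and were higher there too (log2 0.83 and 0.39, for Dag1 a call that ended without leg array 2, 4 or 5 or extraocular array 2 or 3 (adjusted p up to 0.0748, without extraocular array 3)), while Sgca and Sgcb did not pass (adjusted p = 0.562 and 0.542; chosen in the same way). Cav3, the caveolin of muscle (1.79-fold, adjusted p = 3.86e-04), Vcl, vinculin of the membrane-cytoskeleton link (1.56-fold, adjusted p = 7.38e-04), and Anxa1, an annexin of membrane repair that leukocytes also make (2.50-fold, adjusted p = 4.70e-04), were higher in leg.

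Calcium handling genes included wide differences on both sides, 5 of 26 higher in extraocular and 3 in leg muscle. S100a1, a calcium sensor that enhances calcium release, read 7790.0, 6909, 7053, 6357 and 6928 against 1618, 1487, 1454, 1655 and 1429 (4.58-fold higher in extraocular, adjusted p = 1.89e-08), and Stim1, the sensor that opens store-operated calcium entry, 6616, 6173, 6359.8, 5885 and 7525 against 2232, 1546, 1403, 1743 and 1967 (3.70-fold, adjusted p = 7.68e-07). Both separated the muscles with little spread. Cacng1, given above, was the widest on the leg side.

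Ion and water transport genes went both ways: of 20 tested genes 7 were higher in extraocular and 3 in leg muscle. Aqp4, the water channel anchored to the dystrophin complex in fast fibres, read 1938, 2089, 1881, 1602 and 1797 against 657, 876, 364, 752 and 674 (2.90-fold higher in extraocular, adjusted p = 1.02e-04). Atp1b2, a beta subunit of the sodium pump, was 4.76-fold higher in leg (133 ± 43.0 against 621 ± 125, adjusted p = 2.55e-05), and its relative Atp1b1, chosen after its value was seen, was higher in extraocular muscle (log2 0.94, adjusted p = 0.0206, a call that ended without leg array 4 or extraocular array 4 (adjusted p up to 0.0557, without extraocular array 4)). Slc38a4, an amino acid transporter, was 3.39-fold higher in leg (adjusted p = 9.51e-06).

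Fat-burning genes were on the extraocular side where they passed. Of 48 listed genes 38 were on the array and 33 were tested; 21 were higher in extraocular and 0 in leg muscle, with a median log2 difference of 0.67, against 10.3% and 0.01 over all genes. Ech1, an enzyme that feeds unsaturated fats into oxidation, read 13114, 11541, 10956, 9638 and 12288 on extraocular and 3847, 3529, 3594, 3873 and 3460.0 on leg arrays (3.13-fold, log2 1.65, SE 0.12, adjusted p = 6.40e-07). The muscles lay far apart, with little spread within either. Ppara, the nuclear receptor that switches on fat oxidation, was 2.35-fold higher (1154 ± 74.2 against 499 ± 108), Cd36, the carrier of fatty acids into the cell, 2.26-fold higher (899 ± 131 against 396 ± 36.6), and Hadh, an enzyme of the oxidation cycle, 2.19-fold higher (4901 ± 862 against 2224 ± 294; adjusted p = 5.54e-05, 6.83e-05 and 9.29e-05). Slc27a1, a fatty acid transporter, and Ppargc1a, a coactivator of mitochondrial growth, were chosen after their values were seen and differed by log2 1.93 and 1.07 (adjusted p = 0.00456 and 0.0221, for Ppargc1a a call that ended without leg array 4 or extraocular array 1 or 2 (adjusted p up to 0.0663, without extraocular array 2)).

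The respiratory chain differed by smaller and more even amounts. Of 62 tested oxidative phosphorylation genes 22 were higher in extraocular and 0 in leg muscle (median log2 0.36), and the largest difference among the called genes was 0.73. Ndufb10 and Ndufv1, subunits of complex I, were 1.66-fold and 1.56-fold higher, Sdha, of complex II, 1.55-fold, and Cycs, cytochrome c, 1.57-fold (adjusted p = 6.02e-04, 0.00609, 0.00459 and 0.00397). Ndufb10 read 11119, 9916, 10957, 9743 and 12900.5 against 6373, 6635, 5987, 6972 and 6758, with all extraocular arrays above all leg arrays. The count was 14 without leg array 3 or without extraocular array 1, and 13 without a brightness filter. Of 25 tested citrate cycle and support genes 7 were higher in extraocular and 0 in leg muscle, with Oxct1, which burns ketone bodies (1.77-fold, adjusted p = 1.45e-04), Idh2 and Idh3a, isocitrate dehydrogenases (1.86-fold, adjusted p = 3.80e-04, and 1.53-fold, adjusted p = 0.00106), and Ogdh, of the next step of the cycle (1.51-fold, adjusted p = 0.00609).

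Sugar metabolism split by enzyme. Of 29 tested genes 7 were higher in extraocular and 5 in leg muscle. Hk2, the hexokinase that traps glucose, read 6079, 6619, 7254, 5683 and 7583 against 2881, 2672, 2027, 2557 and 2461 (2.64-fold higher in extraocular, adjusted p = 5.84e-06), and Ldhb, the lactate dehydrogenase subunit of oxidative tissue, 4767, 3159.5, 3139, 3476 and 2870.2 against 1018, 621, 519.7, 799 and 718 (4.78-fold, adjusted p = 2.16e-06). Gpd1, of the glycerol phosphate shuttle, and Phka1, a regulator of glycogen breakdown, were 2.66-fold and 3.42-fold higher in leg (adjusted p = 3.97e-06 and 1.35e-05). None of these 4 overlapped between the muscles. Of 10 tested energy buffer genes 2 were higher in extraocular and 3 in leg muscle: Ak4, a mitochondrial adenylate kinase, was 3.85-fold and Ckmt2, the mitochondrial creatine kinase, 1.68-fold higher in extraocular (adjusted p = 1.40e-05 and 0.00871), and Gamt and Gatm, which make creatine, 4.25-fold and 1.69-fold higher in leg (adjusted p = 0.00221 and 0.00534).

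**Figure D4:**
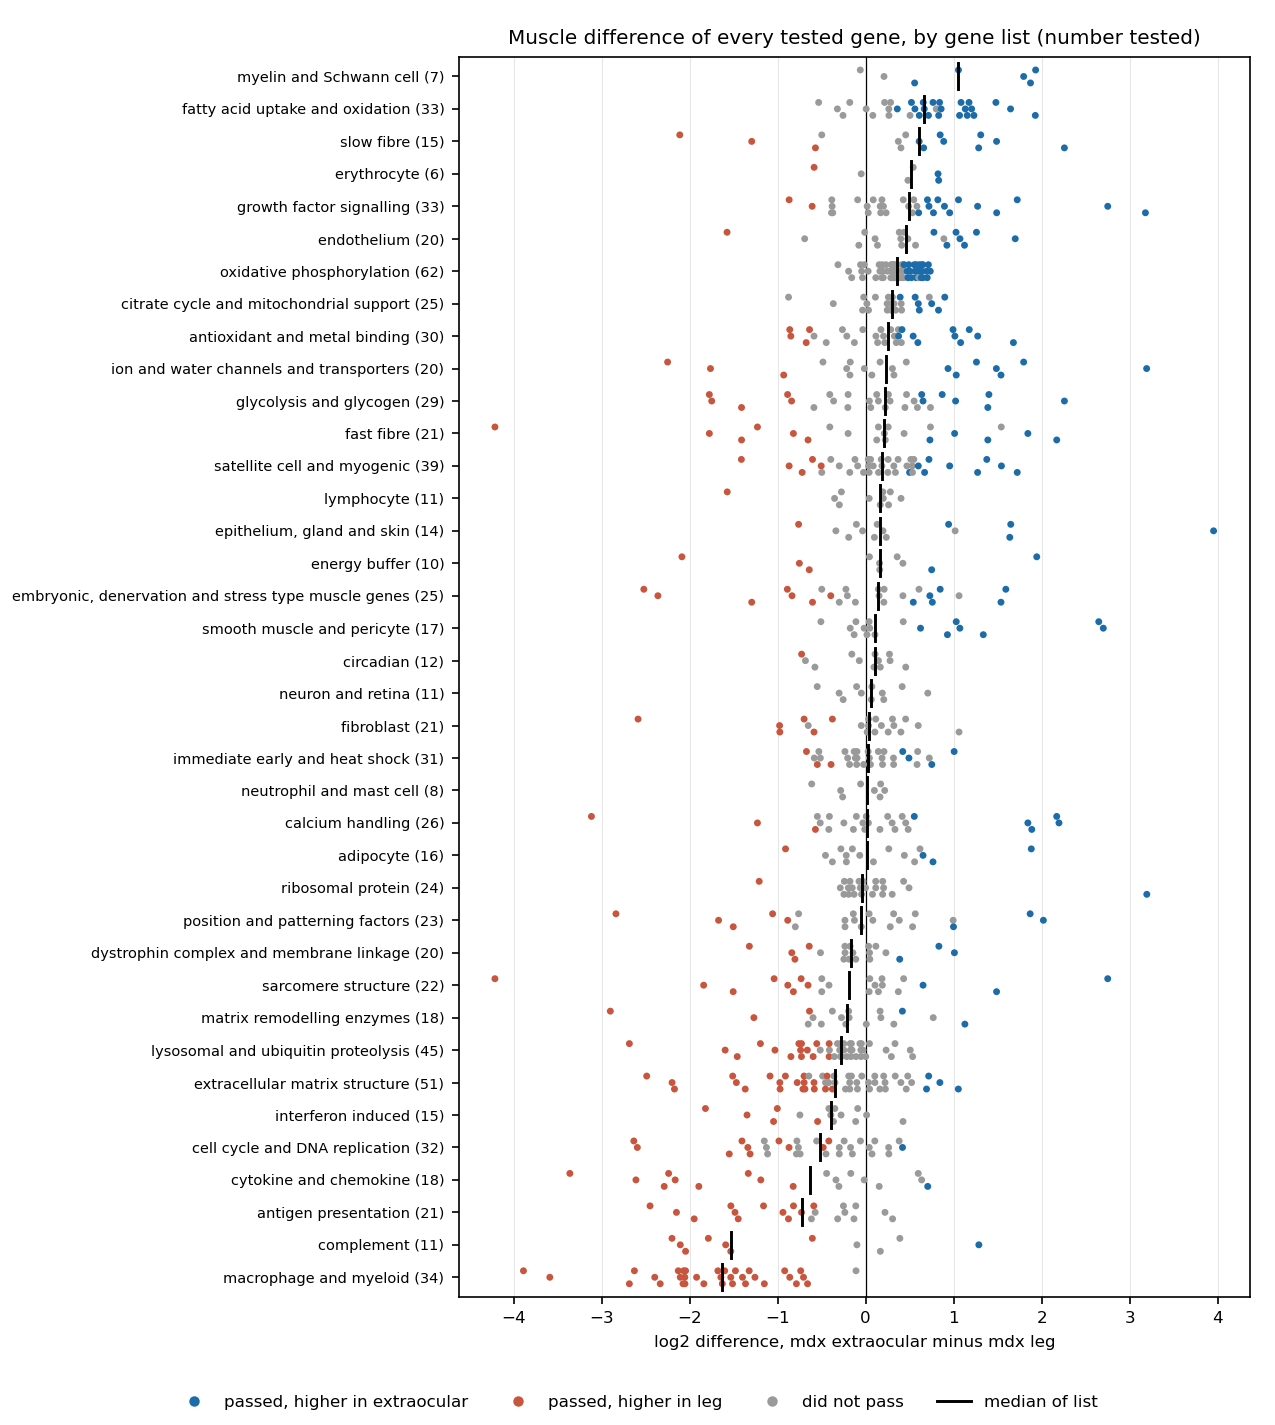
Log2 difference, extraocular minus leg, of every tested gene of 38 lists, ordered by list median (bar), with the number tested in brackets; blue and red points passed at an adjusted p under 0.05 and grey points did not. Macrophage genes lie almost wholly to the left, at a median of -1.64, and fatty acid genes mostly to the right, at 0.67, while fast fibre, calcium handling and ion transport genes spread to both sides.

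Vessel, nerve and gland genes that passed were mostly on the extraocular side. Of 17 tested smooth muscle genes 7 were higher in extraocular and 0 in leg muscle. Myh11, the smooth muscle myosin, read 1398, 1758, 2199, 1812 and 1987 against 223, 208, 416, 303 and 287 (6.50-fold, adjusted p = 6.67e-07), and Cnn1, calponin, 536, 418, 515, 219 and 689 against 87.3, 19.9, 58.4, 49.7 and 142 (6.27-fold, adjusted p = 2.45e-04). Tagln, transgelin, was 2.53-fold, Mylk, the myosin light chain kinase, 2.10-fold and Acta2, smooth muscle actin, chosen after its value was seen, 1.90-fold higher (adjusted p = 8.53e-05, 5.34e-04 and 0.00318). The summed list was at 28507 to 32999.7 on extraocular and 19918 to 26422 on leg arrays. Of 20 tested endothelial genes 7 were higher in extraocular and 1 in leg muscle. Emcn (2.04-fold, adjusted p = 4.70e-04), a sialomucin of capillaries and veins, Aqp1 (2.39-fold, adjusted p = 5.92e-04), a water channel, Vwf (2.18-fold, adjusted p = 0.00182), the von Willebrand factor, and Flt1 (2.10-fold, adjusted p = 0.00197), a receptor of VEGF, had the smallest adjusted p. The endothelial count was 11 with array weights and 3 with a filter at 500.

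Of 7 tested myelin and Schwann cell genes 5 were higher in extraocular and 0 in leg muscle. Mbp, the myelin basic protein, read 1693, 1583, 1751, 1626 and 1832 against 405, 562, 402, 543 and 559 (3.47-fold, adjusted p = 1.00e-06), and Pmp22, a peripheral myelin protein, 5192, 4404, 3912, 4030.5 and 4586 against 767, 1038, 1412, 1354 and 1651 (3.66-fold, adjusted p = 1.11e-05). A dimmer probe set of Mbp did not pass (log2 -0.42, adjusted p = 0.246). Mal, a myelin lipid-raft protein, was 3.81-fold and Erbb3, the neuregulin receptor of Schwann cells, 2.08-fold higher (adjusted p = 2.02e-05 and 0.00117). The summed list was at 8790.1 to 9838 on extraocular and 3273 to 4476 on leg arrays. None of 11 tested neuron and retina genes passed; the smallest adjusted p were those of Uchl1 (0.0734) and Pde6a (0.257).

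Of 14 tested epithelial, gland and skin genes 4 were higher in extraocular and 1 in leg muscle. Bpifa2 was the widest. Muc1, a mucin of epithelial surfaces, read 821, 471, 539, 551 and 558 against 238, 141, 259, 164 and 149 (3.13-fold, adjusted p = 1.75e-04), and Krt6a, a keratin of stressed epithelium, 1429, 1690.3, 1073, 1043 and 3276 against 512, 516, 494, 350.2 and 666 (3.11-fold, adjusted p = 8.89e-04), with extraocular array 5 the highest for Krt6a. Clu, clusterin, was 1.70-fold higher in leg (adjusted p = 8.48e-04). The summed list was at 11328 to 13279.6 on extraocular and 6602 to 8355 on leg arrays, and its part in the other differences was not tested. Of 16 adipocyte genes 3 were higher in extraocular and 1 in leg muscle: Cidea, a lipid droplet protein (3.68-fold, adjusted p = 1.35e-05), Lpl, lipoprotein lipase (1.70-fold, adjusted p = 0.00130), and Slc2a4, the insulin-responsive glucose transporter (1.57-fold, adjusted p = 0.00305), against Cebpa, a factor of fat and myeloid cells (1.88-fold, adjusted p = 0.00163). Lpl and Slc2a4 are also made by muscle fibres. Of 6 erythrocyte genes Hba-a1, alpha globin, and Alas2, of haem synthesis, were higher in extraocular (1.77-fold, adjusted p = 0.0316, and 1.78-fold, adjusted p = 0.0491) and Bpgm in leg (log2 -0.59, adjusted p = 0.0135), all with overlap. For Hba-a1 this was a call that ended without leg array 1 or 3 or extraocular array 1 or 5 (adjusted p up to 0.0748, without extraocular array 1), and for Alas2 a call that ended without leg array 1, 2, 3 or 5 or extraocular array 1, 2, 3, 4 or 5 (adjusted p up to 0.118, without extraocular array 1).

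Growth factor signalling held 13 of 33 tested genes higher in extraocular and 2 in leg muscle (median log2 0.49), led by Crhr2 and Frzb; with a brightness filter of 500 there were 7 in extraocular muscle. Vegfb, a vessel growth factor that also steers fat uptake, was 1.77-fold higher (3040.2 ± 436 against 1721 ± 238, adjusted p = 7.05e-04). Antioxidant genes split 10 to 4 of 30 tested: Aldh1a1, an aldehyde dehydrogenase (2.11-fold, adjusted p = 9.40e-05), Cp, the copper protein ceruloplasmin (3.20-fold, adjusted p = 9.60e-05), and Gpx3, a secreted glutathione peroxidase (1.99-fold, adjusted p = 0.00224), were higher in extraocular, and Txn1, thioredoxin, in leg muscle (1.80-fold, adjusted p = 4.48e-04). The 4 antioxidant genes on the leg side were 1 or 2 without leg array 3 or 5 or without extraocular array 3, 4 or 5. Of 31 immediate early and heat shock genes 4 were higher in extraocular and 3 in leg muscle (median log2 0.03). These counts are close to the 10.3% and 10.2% over all genes. Higher in extraocular were the chaperone genes Bag3 (1.41-fold, adjusted p = 0.00459), Hspa1b (2.01-fold, adjusted p = 0.00590) and Hsph1 (1.34-fold, adjusted p = 0.0134), among others. The stress factor Atf3 was among those higher in leg (1.46-fold, adjusted p = 0.0194). Without leg array 3 or extraocular array 3, 1 was higher in leg. Of 12 circadian genes Nfil3, a repressor (1.66-fold, adjusted p = 0.0396), was higher in leg, a call that ended without leg array 1, 2, 3, 4 or 5 or extraocular array 1, 4 or 5 (adjusted p up to 0.0878, without leg array 1), and its second probe set did not pass (adjusted p = 0.643).

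The last comparison asked which of these differences are also found between the same muscles of control mice and which are not. It used the 10 control arrays and tested the mdx difference minus the control difference over all 20 arrays. Control and mdx samples carry different description labels and name the leg muscle differently. Genotype, any batch that goes with those labels and the choice of leg muscle therefore cannot be told apart. The log2 beta-actin 3' over 5' ratio was also lower on leg mdx arrays (-3.61 to -0.22) than on leg control arrays (0.06 to 0.94). It was -0.38 to 0.53 on extraocular mdx and -0.13 to 0.41 on extraocular control arrays. For Gapdh the leg ranges were -2.70 to -2.38 in mdx and -3.65 to -1.27 in control. Its extraocular ranges were -2.10 to -0.54 in mdx and -3.35 to -1.49 in control. The part of these ratios in this comparison was not tested. The array labelled leg control 4 stands apart from its group: Bpifa2 read 148, 828, 386, 8892 and 78.1 on leg control arrays 1 to 5, and Hoxc9 354, 355, 387, 88.8 and 361, so counts are also given without it. The difference test passed for 448 of 7204 probe sets (6.22%), 93 more positive and 355 more negative in mdx; without leg control 4 it was 459, and without leg control 1 and 4, a choice made after seeing the data, 364. Of the 617 probe sets higher in mdx extraocular muscle, 269 (43.6%) were also higher in control extraocular muscle. That is 37.7% of the 714 of that direction there, and 18.8% of probe sets were called in control muscle in either direction. By the test 52 of the 617 (8.43%, or 46 without leg control 4) had a more positive difference in mdx. Of the 647 higher in mdx leg muscle, 193 (29.8%) were also higher in control leg muscle, 38.4% of the 503 of that direction there. By the test 239 of the 647 (36.9%, or 238 without leg control 4) had a more negative difference in mdx. A more negative difference can be a change of sign from control and need not be larger in size. Over the 6468 probe sets the mdx and control differences, which share no array, had a Pearson r of 0.42 and a Spearman rho of 0.35; probe sets share arrays and scaling and are not independent.

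Macrophage and matrix genes, each as a group, differed between the muscles in mdx and not in the same way in control mice. In control muscle 20.3% of the 5011 genes passed, 601 higher in extraocular and 416 in leg muscle. Of 34 macrophage genes 1 was higher in control leg and 4 in control extraocular muscle, and the difference test passed, more negative in mdx, for 24 (also 24 without leg control 4), against 5.77% of all genes. For Ctss the control difference was 0.68 and the mdx minus control difference -3.37 (SE 0.27, adjusted p = 8.28e-08). In control muscle matrix genes were higher in extraocular muscle for 23 of 51 and in leg for 1 (median 0.58 against -0.35 in mdx), and the test passed for 20 genes, all more negative in mdx (19 without leg control 4). Postn had a control difference of 2.15, opposite in sign to -2.49 in mdx (difference -4.63, adjusted p = 4.52e-09), and Col5a2 and Col3a1 were also of opposite sign (1.00 and 1.18 in control, adjusted p of the difference = 0.00170 and 0.0140). Of 32 cell cycle genes 9 passed the test, more negative in mdx (8 without leg control 4). Among lysosomal and ubiquitin genes 9 of 45 did (12 without leg control 4) and 1 was more positive, and among fibroblast markers 9 of 21. Other immune lists varied. The test passed, more negative in mdx, for 8 of 18 cytokine and chemokine, 5 of 11 complement and 7 of 21 antigen presentation genes. It passed for 2 of 15 interferon and 0 of 11 lymphocyte genes. Ighm and Cd55 were higher in leg in control muscle too (log2 -1.38 and -1.92), and the test did not pass for them (adjusted p = 0.811 and 0.720).

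Among junction, growth and other muscle genes the test of the difference passed for some and not for others. Chrna1 was higher in extraocular muscle by 2.59 in control and 0.73 in mdx mice (difference -1.86, adjusted p = 4.08e-05), and Peg3, an imprinted gene of satellite cells chosen after its value was seen, by 2.28 and 0.50 (in mdx a call that ended without leg array 2 or 3 or extraocular array 2 or 3 (adjusted p up to 0.0600, without extraocular array 2); difference -1.78, adjusted p = 1.10e-05). Tnnt2 went from 1.10 in control to -0.84 in mdx mice (adjusted p = 1.67e-05), as did Mest (0.83 to -1.41, adjusted p = 6.05e-04) and Gatm (1.83 to -0.75, adjusted p = 1.67e-05). For Chrng, Chrne, Myod1 and Myog the test did not pass (adjusted p = 0.217, 0.304, 0.631 and 0.164). Nor did it pass for Ache, Fst and Fgf1 (adjusted p = 0.830, 0.376 and 0.312).

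Metabolic genes gave a mixed answer. Of 33 fatty acid genes 10 were higher in control extraocular and 1 in control leg muscle. By the test 4 had a more positive difference in mdx (5 without leg control 4) against 1.42% of all genes. Cpt1a, the gate of fatty acids into mitochondria, chosen after its value was seen, was the 1 with a more negative difference in mdx (1.82 in control and -0.53 in mdx, where it did not pass; adjusted p of the difference = 0.00143). The positive ones included Ech1 at 0.90 in control and 1.65 in mdx (adjusted p = 0.00899). Of 62 oxidative phosphorylation genes 1 was higher in control extraocular and 1 in control leg muscle (median -0.08), but the difference itself passed for 3 (1 without leg control 4, when 1 was more negative). Hk2 and Aqp4 had more positive differences in mdx (control 0.36 and -0.31, adjusted p of the difference = 0.00129 and 0.00141), as did Crhr2 (control 0.97, adjusted p = 0.0106) and Rpl41 (control -0.84, adjusted p = 0.00222).

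For contractile, transport, vessel and nerve genes both muscle differences stand side by side here. Myom2 was -5.49 in control and -4.21 in mdx, a gap that passed narrowly (difference 1.28, adjusted p = 0.0469). The test did not pass for Cacng1 (-3.66 and -3.11), Slc4a3 (3.12 and 3.19), S100a1 (1.93 and 2.20), Myh11 (2.49 and 2.70), Mbp (1.62 and 1.79) or Hoxc9 (-2.01 and -1.67), with adjusted p from 0.241 to 0.917; a p that misses the threshold does not show that the differences are equal. For Bpifa2 the control difference was 3.06 and 4.10 without leg control 4 (adjusted p of the difference = 0.734 and 0.933).

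**Figure D5:**
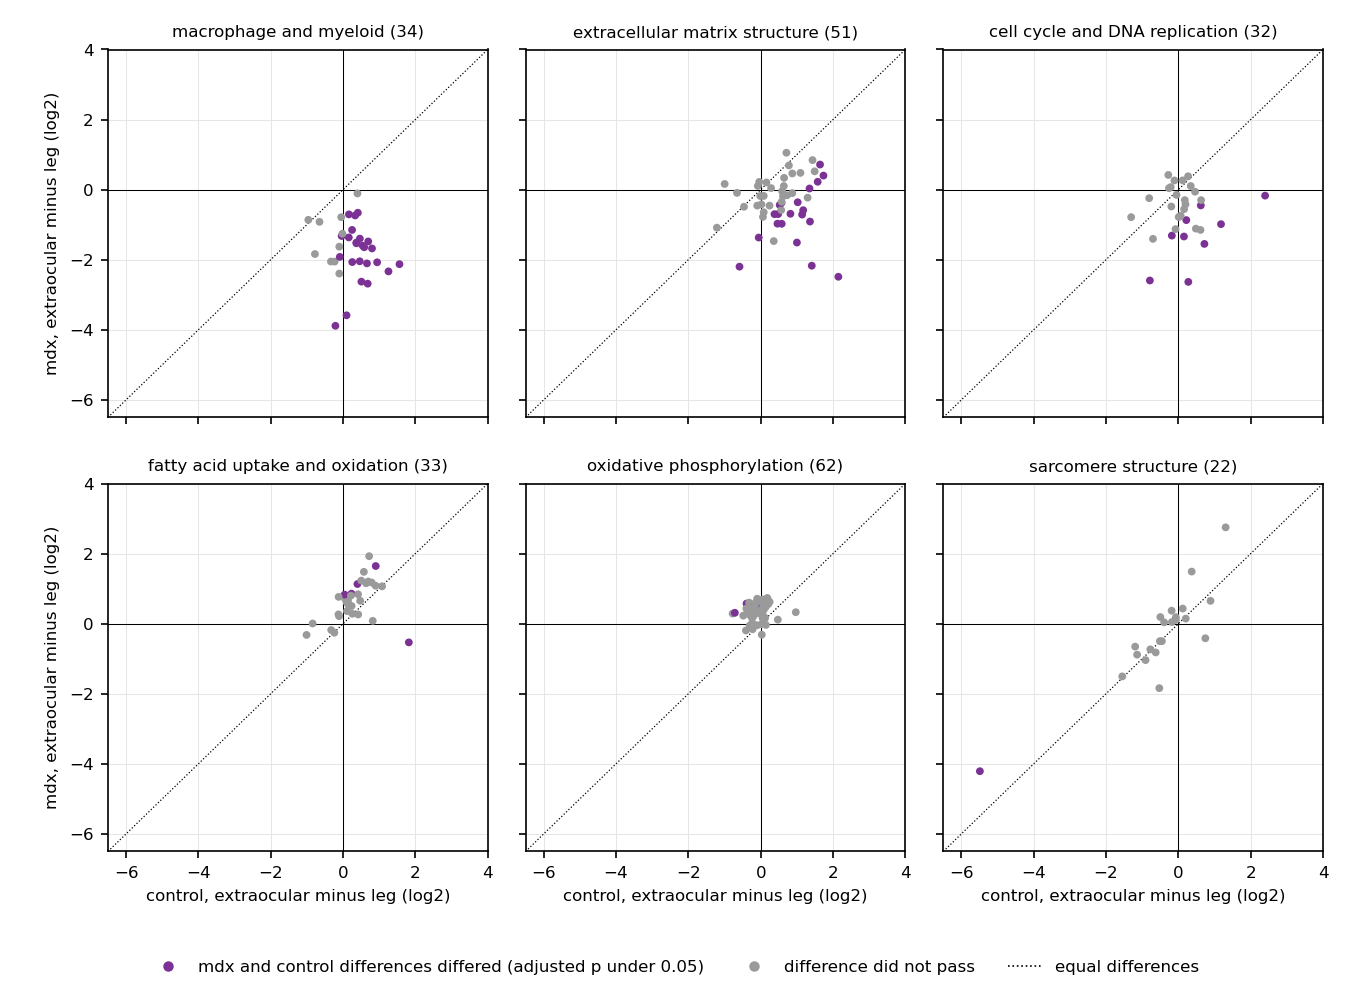
Muscle difference (log2, extraocular minus leg) in mdx mice against that in control mice for the tested genes of 6 lists, with the number shown in brackets; purple points passed the test of the difference between genotypes and the dotted line marks equal differences. Macrophage and matrix genes lie mostly below the line, fatty acid and oxidative phosphorylation genes mostly above it, and sarcomere genes on both sides; the difference test passed for 24 of 34 macrophage and 3 of 62 oxidative phosphorylation genes.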

How the data were processed

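Total RNA of extraocular and leg muscle was hybridised to one-colour Affymetrix arrays of an early mouse design. The deposited values are linear intensities that the authors had already scaled to a common level. The program behind them was not given in the sources used here. Mdx arrays were run by Affymetrix's standard procedure, per the labels. With 5 arrays a group, their number limits precision.

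Of 12654 probe sets 66 were Affymetrix controls. Each array was scaled so that the 2% trimmed mean of the other 12588 was 500, values were floored at 50, and log2 was taken. Probe sets at 200 or more on at least 5 of the 10 mdx arrays were tested with limma 3.58.1 in R 4.3.3 (lmFit, eBayes with an intensity trend, 8 residual degrees of freedom), with Benjamini-Hochberg adjustment at 5%. The fit was also run on simulated arrays with known changes, drawn independently for each probe set. These arrays lack the 3' over 5' difference between the muscles, so they cannot show how the fit behaves with it. The comparison with control muscle used a fit of all 20 arrays as 4 groups.

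The platform annotation gave 1 symbol for 10298 probe sets, several for 363 and did not list 1993; 10279 were found in RefSeq and 0 symbols changed. Some probe sets of this design were later withdrawn by the maker and none was removed here. Those ending in _f_at, _s_at, _r_at, _g_at or _i_at can read related genes or rest on an incomplete set of probes. Genes named by such probe sets include Rpl41, Egfbp2, Cnn1, Cd68, Ighm, Myh7, S100a1, Mmp12, Hoxc9, Anxa1, Atp2a1, Igf2 and Kif22. They also include Alas2, Atf3, Atp1b1, Fbln1, H2-D1, Hoxa4, Nfil3 and Pvalb.

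Genes are named by rule: the 12 largest differences in each direction that passed without overlap, up to 4 members per list with the smallest adjusted p, Dmd, Utrn, myosin heavy chains and tissue markers. Others are said to be chosen after their values were seen. The comparison, the 38 gene lists and the motifs were chosen with earlier results of these data known. Alternatives were the deposited scale, quantile normalization, a floor of 20 or 100, adding 50 in place of a floor, no filter or 500 as its limit, no trend, array weights, all 20 arrays, blocks by replicate number, averaging probe sets by gene, and fits without 1 array in turn. Deposited values are larger than the scaled ones, while floor and filter kept their size. That setting therefore also loosened both, and 9323 probe sets were tested in it.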

Additional observations from a re-analysis of the deposited data

Results flagged for a closer look

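One array lay far from the other 4 of its group for 23 of 370 sets of 5 values, 15 in extraocular and 8 in leg muscle: its gap to the nearest array exceeded 0.71 of the range of the 5. Chance alone passes that limit in about 1 of 20 groups. On the extraocular side, far above the other arrays were Alas2 on array 1 (675, others 361 to 431), Dmd on array 5 (175, others 102 to 113), Gatm on array 2 (1122, others 722 to 794), H2az1 on array 4 (1365, others 1118 to 1156), Krt6a on array 5 (3276, others 1043 to 1690.3), Muc1 on array 1 (821, others 471 to 558), Myl3 on array 5 (855, others 575 to 638), Myl6b on array 1 (2470.4, others 1636 to 1751), Rpl41 on array 1 (14058, others 3091 to 5192), Sgca on array 5 (3277, others 2021 to 2343) and Tyrobp on array 5 (877, others 253 to 419). On the extraocular side, far below the other arrays were Ankrd2 on array 1 (653, others 886 to 918), Fst on array 5 (312, others 533 to 562), Gamt on array 3 (83.6, others 444 to 497) and Rpl13a on array 3 (309.6, others 347 to 356). On the leg side, far above the other arrays were Atp2a1 on array 5 (3198, others 389 to 766), Cyp1b1 on array 5 (191, others 33.9 to 51.3), Oxct1 on array 5 (2588, others 2259 to 2348), Pde6a on array 1 (292, others 167 to 199), Ppara on array 1 (686, others 411 to 483) and Tnc on array 5 (1125, others 483 to 623). On the leg side, far below the other arrays were Chrna1 on array 3 (1020.2, others 1165 to 1214) and Ifi27 on array 1 (2100.3, others 2499 to 2616).

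The muscle difference differed between mdx and control mice by the limma test of the difference itself for 64 of 184 named genes that could be tested, over 20 arrays with 5 in each group. Over all probe sets tested it passed for 6.22%. The named genes were chosen largely by their mdx difference, which enters the same test, so the count is a description and not read against that share. It was more negative in mdx, toward leg muscle, for 52 and more positive for 12. Log2 values of the mdx minus the control difference were, for the widest, -4.63 for Postn, -3.80 for Ccl8, -3.69 for Lyz2, -3.68 for Lgals3, -3.68 for Cd53, -3.41 for Sirpa, -3.37 for Ctss, -3.22 for Mmp12, -3.13 for Tyrobp, -3.02 for Laptm5 and -3.01 for H2-DMa. Between the widest and the middle they were -2.91 for Lilr4b, -2.91 for Cks1b, -2.86 for Ccl7, -2.75 for Il1rn, -2.59 for Gatm, -2.51 for Col5a2, -2.51 for C1qa, -2.50 for Ccl2, -2.40 for H2-Ab1, -2.37 for H2-Aa, -2.35 for Cpt1a, -2.32 for Mpeg1, -2.29 for Ccr2, -2.24 for Mest, -2.22 for S100a4 and -2.20 for Timp1. In the middle of the range they were -1.95 for Ankrd1, -1.93 for Tnnt2, -1.91 for Ctsz, -1.90 for C1qc, -1.86 for Chrna1, -1.86 for Anxa1, -1.83 for Cd68, -1.81 for Cdk1, -1.78 for Peg3, -1.76 for Col3a1, -1.61 for Tnc and -1.56 for Col1a1. The smallest were -1.46 for H2-D1, -1.34 for Cebpa, -1.32 for Igf2, -1.31 for Col6a3, -1.27 for Cstb, -1.26 for Ifi204, -1.23 for Rpl13a, -1.18 for Col1a2, -1.13 for Kif22, -1.03 for H2-Eb1, -0.92 for Eln, -0.80 for Nes and -0.68 for Ifi27. More positive in mdx were Bag3 (0.50), Hadh (0.73), Ech1 (0.74), Slc2a4 (0.82), Hk2 (1.04), Aqp1 (1.10), Myom2 (1.28), Krt6a (1.34), Selenbp1 (1.42), Aqp4 (1.84), Crhr2 (2.21) and Rpl41 (4.03). Without leg control 4 the test no longer passed for Cdk1 (adjusted p = 0.0778), Bag3 (adjusted p = 0.0616), Krt6a (adjusted p = 0.0548) and Selenbp1 (adjusted p = 0.0596). Genotype and the different labels of mdx and control arrays cannot be told apart in these values.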

How the results depend on the processing

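Over all alternatives run, the counts of probe sets higher in extraocular muscle (617) and in leg muscle (647) stayed within 1.5 times, as did the count for the difference between genotypes (448). The count differing at least 2-fold (461) was 273 with a filter at 500, where 3748 probe sets were tested. Leaving out 1 array gave 474 to 593 higher in extraocular, 506 to 648 higher in leg, 436 to 479 at least 2-fold, and 326 to 463 for the difference between genotypes. Same-numbered arrays of the 2 muscles did not deviate together (r from -0.08 to 0.10, and 1 of 5 extraocular arrays was closest to its own number), so the numbers were not taken as pairs; with the replicate block the counts were 584, 577 and 461, and 458 for the difference.

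Myh3, which did not pass, changed sign without leg array 3 (0.12), leg array 4 (0.02) or extraocular array 1 (0.06), within a range of -0.41 to 0.12 without 1 array. Pvalb changed sign with the mean of its probe sets (0.93). With no filter, calls were lost for Acta1, Atp2a1, Casq1, Myh4, Myh7, Myog, Ppargc1a, Hba-a1, Alas2, Nfil3, Ccl22, Cdkn1b, Ifi27, Ifi35 and Iigp1, and with all 20 arrays for Atf3, Atp2a1, Cdkn1b, Col1a2, Col3a1, Iigp1, Myh7, Myl3 and Myog. The replicate block ended the calls of Alas2, Dag1 and Peg3. Of list counts, the block raised fast fibre genes higher in extraocular from 5 to 8 (also 8 with array weights) and glycolysis genes from 7 to 12. With a filter at 500, genes higher in extraocular fell from 13 to 7 for growth factors, from 7 to 3 for transport and from 4 to 2 for gland genes, and genes higher in leg from 5 to 3 for interferon and from 5 to 2 for position factors. With no filter, calcium handling genes higher in extraocular went from 5 to 3 and antioxidant genes from 10 to 6, and genes higher in leg from 4 to 1 for antioxidant, from 3 to 1 for heat shock and from 5 to 3 for position factors, the last also on the deposited scale. Matrix enzymes higher in leg were 5 in place of 3 with array weights, and interferon genes 3 in place of 5 with all 20 arrays. The causes were not tested. Folds of genes with arrays below the floor of 50 depend on that floor, since signal over background limits what can be measured there.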
